A study of Homo sapiens with 9 samples.

Results

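The 7 cyclin-dependent kinase inhibitor genes were examined as chromatin targets of EZH2 in LNCaP, an established human prostate carcinoma cell line. The genes were chosen with earlier results of these data known. Given the genes, regions were taken by position alone, when they lay within 10 kb of 1 of them on hg19. This gave 66 of the 335291 regions in 6 deposited lists. EZH2, H3K27ac and H3K27me3 had each been immunoprecipitated from LNCaP cells infected with a lentivirus that knocks down EZH2 (genotype shEZH2) and from cells of the genotype plko.1, the name of a lentiviral hairpin vector, taken here as the control. Infected cells were fixed 2 to 3 days later in 1% paraformaldehyde. The title of the control EZH2 sample ends in EZH2(CST) and that of the shEZH2 sample in EZH2. The titles alone do not show whether both used the same antibody. Each of these 6 groups held 1 library, so no difference between shEZH2 and control could be set against a spread between cultures, and no p-value was computed. The other 3 samples of the series, from EZH2-HA and CTRL R1881 cells, were not analysed here. The knockdown itself was not measured in these lists, and the cell line was not checked against marker genes because no hg19 annotation was used.

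Cyclin-dependent kinase inhibitors hold back the cell cycle. The INK4 family (CDKN2A encoding p16INK4a and p14ARF, CDKN2B encoding p15INK4b, CDKN2C encoding p18INK4c and CDKN2D encoding p19INK4d) binds CDK4 and CDK6 and keeps the retinoblastoma protein active, while p14ARF acts on MDM2 and p53. The CIP/KIP family (CDKN1A encoding p21CIP1, CDKN1B encoding p27KIP1 and CDKN1C encoding p57KIP2) binds cyclin and kinase together, and CDKN1A is a classic p53 target. EZH2 is the methyltransferase of Polycomb repressive complex 2, which places H3K27me3 on silenced chromatin, and the CDKN2A and CDKN2B locus is a textbook Polycomb target. H3K27ac on the same residue marks active promoters and enhancers. CDKN1C is imprinted and is expressed from the maternal copy.

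The 6 libraries held 13331155 to 33289172 tags. The deposited unit of signal is the normalised tag, a tag number brought by the authors to a common library size of 10000000, and it is given here with 95% exact Poisson intervals that cover counting error only. EZH2 peaks were fixed windows of 151 bp in shEZH2 and 183 bp in control. The stated EZH2 threshold was 10 tags (6.89 normalised tags) in shEZH2 and 9 tags (6.75 normalised tags) in control. Listed EZH2 peaks held as few as 7 tags in both lists, so these thresholds are not a floor of the listed values. The H3K27ac and H3K27me3 lists were made with broader windows in shEZH2. As a tag density, the stated window threshold of control was 3.63 times that of shEZH2 for H3K27ac and 2.73 times for H3K27me3. Numbers and widths of histone regions are therefore not comparable between shEZH2 and control.

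Promoter sequence is shown for 4 genes whose EZH2 peaks near an annotated start are described below: CDKN2D, with a peak there in shEZH2 and control, CDKN1A, with a peak inside the gene in both, and CDKN1B and CDKN2B, with control peaks alone. These are the 250 bases before the annotated start from RefSeq, on build GRCh38.p14 and 5′ to 3′ along the gene, with CpG dinucleotides, the feature of the unmethylated islands that Polycomb complexes are known to occupy in mammals, in capitals.
CDKN2D, chr19:10568980-10569229, minus strand: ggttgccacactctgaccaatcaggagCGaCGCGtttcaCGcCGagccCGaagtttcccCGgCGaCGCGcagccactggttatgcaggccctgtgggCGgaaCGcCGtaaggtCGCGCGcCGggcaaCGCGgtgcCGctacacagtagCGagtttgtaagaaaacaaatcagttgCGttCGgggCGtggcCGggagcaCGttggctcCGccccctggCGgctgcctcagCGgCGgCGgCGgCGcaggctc
CDKN1A, chr6:36678464-36678713, plus strand: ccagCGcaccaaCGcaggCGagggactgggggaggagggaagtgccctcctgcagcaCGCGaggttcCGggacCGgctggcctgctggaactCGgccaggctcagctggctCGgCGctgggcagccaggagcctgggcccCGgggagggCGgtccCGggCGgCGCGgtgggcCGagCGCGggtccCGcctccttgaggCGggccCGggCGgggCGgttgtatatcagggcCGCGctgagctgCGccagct
CDKN1B, chr12:12717118-12717367, plus strand: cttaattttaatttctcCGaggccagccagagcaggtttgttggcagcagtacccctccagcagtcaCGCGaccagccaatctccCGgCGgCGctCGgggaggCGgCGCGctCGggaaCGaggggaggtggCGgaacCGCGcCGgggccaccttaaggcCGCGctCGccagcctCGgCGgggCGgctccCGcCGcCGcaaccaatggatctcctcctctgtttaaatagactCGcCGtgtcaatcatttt
CDKN2B, chr9:22009306-22009555, minus strand: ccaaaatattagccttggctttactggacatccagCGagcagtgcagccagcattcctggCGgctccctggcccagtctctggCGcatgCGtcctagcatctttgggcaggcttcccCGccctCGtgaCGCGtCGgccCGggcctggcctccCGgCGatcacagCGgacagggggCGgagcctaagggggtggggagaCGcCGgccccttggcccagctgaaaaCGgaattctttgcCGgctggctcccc
CDKN2D held 33 CpG, CDKN1A and CDKN1B 27 each and CDKN2B 18, against a median of 11 over the 35116 RefSeq promoters in the table. The entries at the starts of the other 2 genes with an EZH2 peak close by, not printed, held 24 CpG at CDKN2A and 7 at CDKN2C, the one under that median, while a second CDKN2C entry 7961 bases inside the gene held 35. As many as in CDKN2D were found in 8.15% of those promoters, and as many as in CDKN2B in 36.8%. The GC box GGGCGG, searched on both strands and itself containing a CpG, occurred in the 4 printed sequences and in neither start entry of CDKN2A and CDKN2C. The further entries inside CDKN2A and CDKN2C did hold it, with 5 in the CDKN2C entry 7961 bases inside the gene. It was held by 42.6% of all promoters. RefSeq entries were found for 6 of the 7 genes. The entry for CDKN1A starts 2251 bases inside that gene as annotated on GRCh38.p14. GRCh38.p14 and hg19 were not aligned to each other, and positions below are hg19 except where GRCh38.p14 is named.

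EZH2 was listed near all 7 genes in control cells and near 4 of them in shEZH2 cells. Within 10 kb there were 8 distinct EZH2 peaks in shEZH2 and 15 in control. The whole EZH2 lists held 9493 peaks in shEZH2 and 23060 in control, so fewer peaks were listed in shEZH2 throughout. No shEZH2 peak lay near CDKN2A, CDKN2B or CDKN1B. Of the 15 control peaks, 5 overlapped a shEZH2 peak by at least 1 bp (33.3%, 95% exact binomial interval 11.8 to 61.6), against 23.1% of all control EZH2 peaks. Seen from the shEZH2 list, 5 of the 8 peaks overlapped a control peak (62.5%, 24.5 to 91.5), against 56.2% of all shEZH2 EZH2 peaks. Without CDKN1C the number of control peaks listed again was 3 of 13 (23.1%, 5.04 to 53.8), so the share near these genes could not be told from that of the whole list. The number of peaks also depended on list length. When each EZH2 list was held to its 9493 top-scoring peaks, 8 lay near the genes in shEZH2 and 7 in control.

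**Figure D1:**
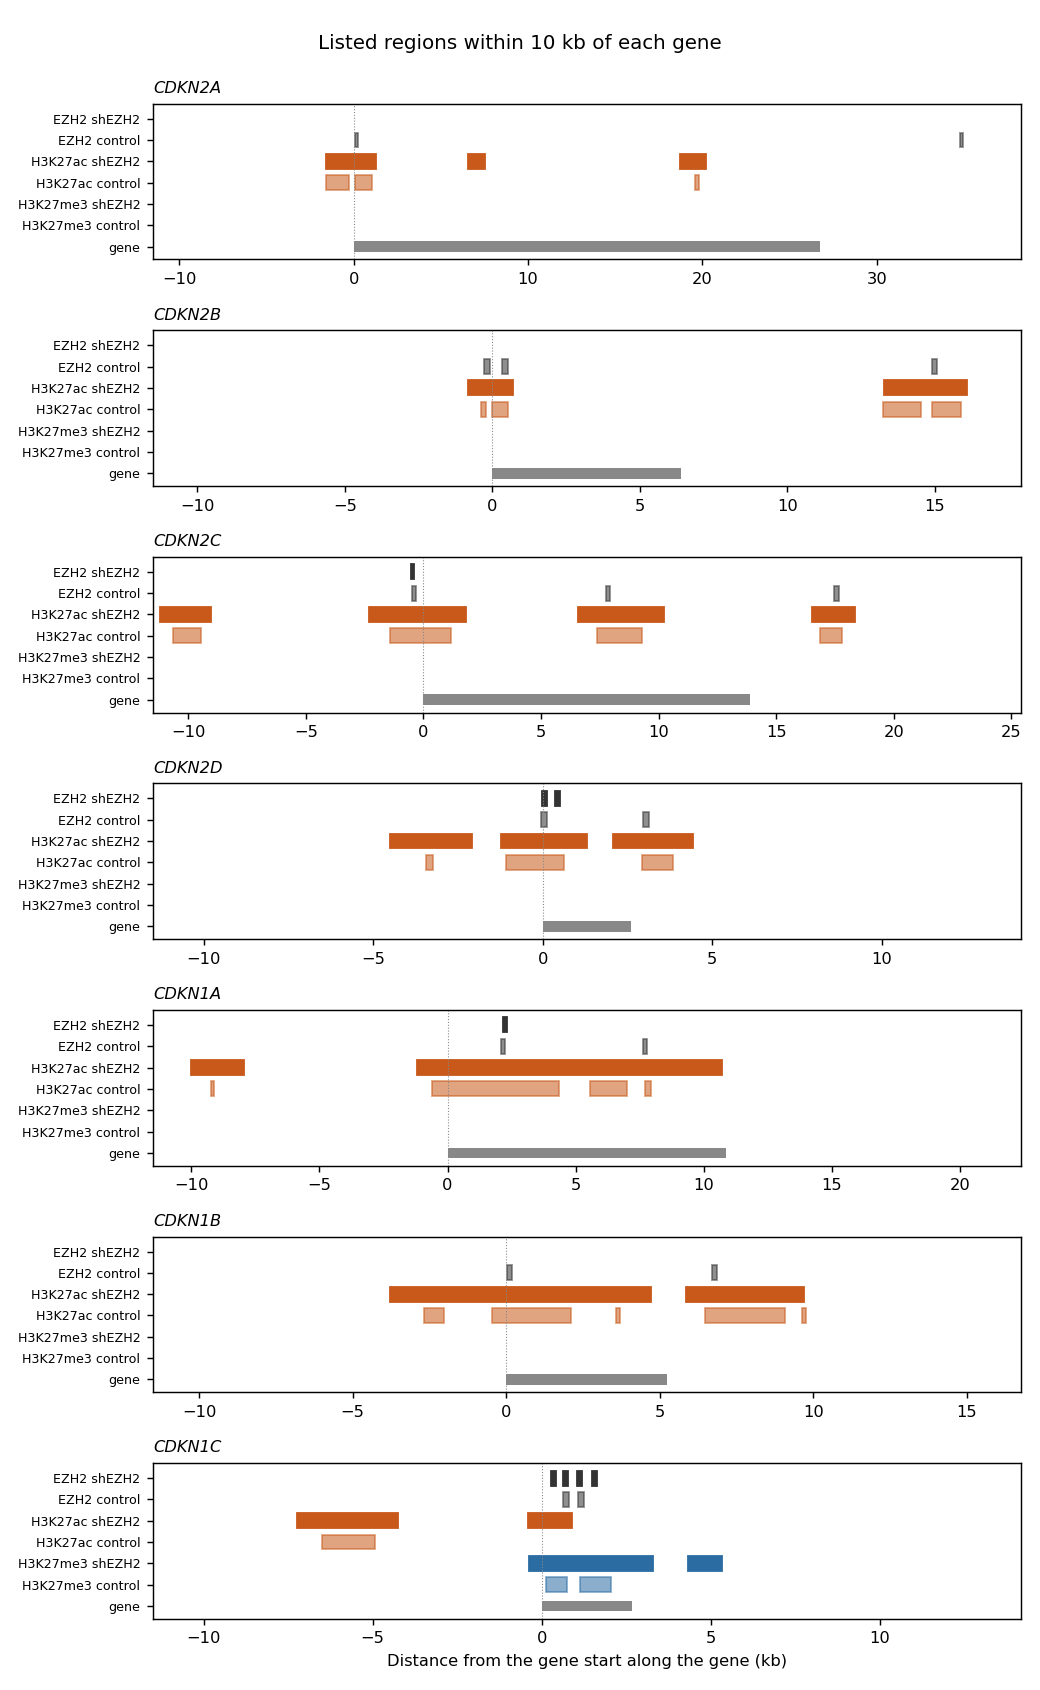
Listed regions within 10 kb of each gene, drawn by distance from the gene start in kb along the gene, with a row for each target and for shEZH2 above control; the grey bar is the gene. H3K27ac appears at all 7 genes, H3K27me3 at CDKN1C alone, and EZH2 in shEZH2 at CDKN2C, CDKN2D, CDKN1A and CDKN1C.

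CDKN1C had the strongest EZH2 signal of the 7 genes and was the one gene with more peaks in shEZH2. In shEZH2 its 4 peaks held 10.3, 15.8, 20 and 15.8 normalised tags. In control its 2 peaks held 24 and 37.5 normalised tags, and 4.71% of all control peaks held as many tags as the stronger of them. All 6 peaks lay inside the gene, between 269 and 1625 bases after its start, and the stronger control peak was at chromosome 11 from 2906298 to 2906480. The summed signal over listed peaks was alike, at 61.9 normalised tags in shEZH2 (49.9 to 76.2) and 61.5 in control (48.9 to 76.4). Spread over the larger number of windows, this came to 102 normalised tags per kb in shEZH2 and 168 in control. The likeness of the sums depended on the scaling. Scaled to the tags in listed peaks instead, their log2 ratio, shEZH2 over control, was 1.07 (0.63 to 1.52).

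CDKN1A was the one gene whose shared EZH2 peak had a higher value in shEZH2. The peak held 15.8 normalised tags in shEZH2 (10.0 to 23.8) at chromosome 6 from 36646392 to 36646542, and 12.8 in control (7.43 to 20.4) from 36646317 to 36646499, with overlapping intervals. These windows lie 2155 to 2305 and 2080 to 2262 bases after the start of the gene as used here. A second control peak, 7619 to 7801 bases after the start, held 6.75 normalised tags, or 9 tags, the stated control threshold, and was not listed in shEZH2. CDKN1B had control peaks alone. The one 15 to 197 bases after its start held 10.5 normalised tags (5.74 to 17.6), and one beyond its 3′ end held 9 (4.65 to 15.7).

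**Figure D2:**
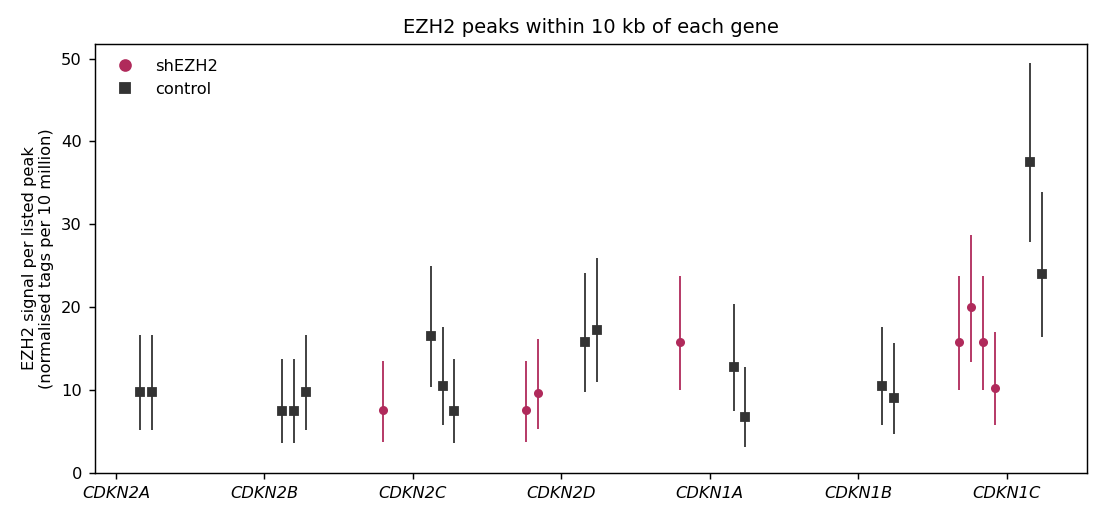
EZH2 signal of every listed peak within 10 kb of each gene, in normalised tags, with 95% exact Poisson intervals; circles are shEZH2 and squares control. The CDKN1C control peaks, at 37.5 and 24, are the highest, and CDKN2A, CDKN2B and CDKN1B have no shEZH2 peak; the peak between CDKN2A and CDKN2B is drawn at both genes.

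Among the INK4 genes, EZH2 was listed in shEZH2 at CDKN2D and CDKN2C alone. The peak over the start of CDKN2D, whose CpG-rich sequence is given above, held 7.58 normalised tags in shEZH2 (3.78 to 13.6) and 15.8 in control (9.75 to 24.1), at chromosome 19 from 10679620 to 10679770 and from 10679619 to 10679801. A further shEZH2 peak 368 to 518 bases after the start held 9.65 normalised tags. The strongest control peak near CDKN2D, with 17.3 normalised tags, lay beyond its 3′ end and was not listed in shEZH2. The RefSeq table for GRCh38.p14 places KRI1 and AP1M2 as the neighbours of CDKN2D, and which gene the peak belongs to was not determined.

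At CDKN2C the peak upstream of the start held 7.58 normalised tags in shEZH2 (3.78 to 13.6) and 16.5 in control (10.3 to 25). It lies upstream, at -532 to -382 bases from the start in shEZH2 and -502 to -320 in control, and the same table gives FAF1 as the neighbouring gene. Control peaks inside CDKN2C and beyond its 3′ end, with 10.5 and 7.5 normalised tags, were not listed in shEZH2. CDKN2A and CDKN2B had 4 distinct control peaks of 7.5 to 9.75 normalised tags and none in shEZH2. One of them, at chromosome 9 from 21994227 to 21994409, lies 81 to 263 bases after the start of CDKN2A and also within 10 kb of CDKN2B. The pair around the start of CDKN2B held 7.5 normalised tags each, or 10 tags, 1 above the stated threshold in control.

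The control peaks listed again held more tags at the median, with overlapping ranges. They held 12.8 to 37.5 normalised tags, and the 10 not listed again 6.75 to 17.3, with medians of 16.5 and 9.38. The shEZH2 signal at the 10 peaks is not in the lists, and why they were not listed again was not tested.

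At the 5 peaks listed in both, the density per kb was lower in shEZH2 at 4 and higher at 1. The log2 ratio of shEZH2 over control in normalised tags per kb was -0.84 at CDKN2C (-2.04 to 0.26, 95% exact interval of the split of tags), -0.78 at CDKN2D (-1.98 to 0.34), and -0.33 and -0.63 at CDKN1C (-1.16 to 0.50 and -1.34 to 0.06). At CDKN1A it was 0.58 (-0.38 to 1.59). Every interval included 0, so at 11 to 29 tags per peak in shEZH2 and 17 to 50 in control a difference per kb was not detectable at any of the 5 by itself. This depended on the division by window width. Per peak, the ratio was -1.12 at CDKN2C (-2.31 to -0.017) and -0.91 at the stronger CDKN1C peak (-1.62 to -0.22), while the other intervals included 0. The median of the 5 ratios per kb, -0.63, stood beside a median of -0.39 over all 5330 control peaks listed in both, of which 28.8% were higher in shEZH2. Scaling each library to its tags in listed peaks instead adds 1.06 to every EZH2 log2 ratio and puts all 5 ratios per kb above 0.

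**Figure D3:**
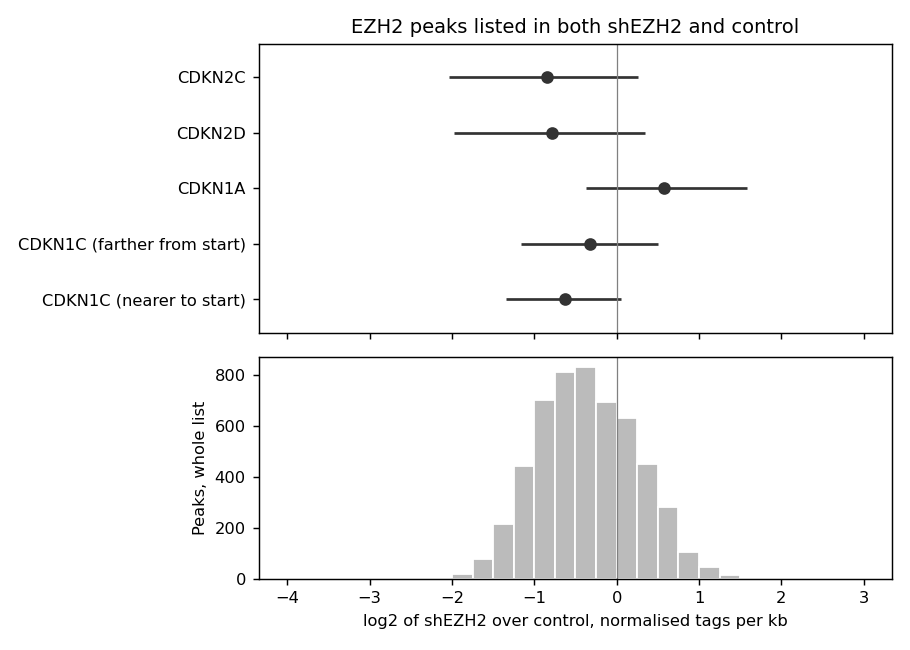
Log2 ratio of shEZH2 over control EZH2 signal per kb at the 5 control peaks near the genes that were listed in both (top, with 95% exact intervals), above the histogram of the same ratio for all 5330 such peaks (bottom). CDKN1A lies at 0.58 and the other 4 peaks between -0.84 and -0.33, all with intervals that include 0.

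The next comparison set EZH2 against both marks. Near the 6 genes other than CDKN1C, all EZH2 peaks but 1 lay on H3K27ac. In shEZH2, 6 of 8 EZH2 peaks overlapped a shEZH2 H3K27ac region (75%, 34.9 to 96.8), against 39.7% of the whole shEZH2 list, and 4 of 8 a shEZH2 H3K27me3 region (50%, 15.7 to 84.3), against 67.8%. In control, 12 of 15 peaks overlapped H3K27ac (80%, 51.9 to 95.7), against 34.4% of the whole control list, and 2 of 15 overlapped H3K27me3 (13.3%, 1.66 to 40.5), against 44.2%. The 12 were all the control peaks near the 6 other genes except 1, a peak beyond the 3′ end of CDKN2A with neither mark at chromosome 9 from 21959533 to 21959715. Both control peaks on H3K27me3 were those of CDKN1C. In shEZH2 all 4 CDKN1C peaks lay on H3K27me3, and 2 of these also on H3K27ac. The control peaks on H3K27ac were weaker than the 2 CDKN1C peaks on H3K27me3, with a median of 10.1 normalised tags against 30.8. Their median local fold was higher, at 11 against 7.08, with overlapping ranges of 7.21 to 21.5 and 5.3 to 8.85.

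H3K27me3 was listed near CDKN1C and near none of the 6 other genes, in shEZH2 and in control. In shEZH2 a region of 3659 bp covered the start and the whole of CDKN1C, at chromosome 11 from 2903827 to 2907485, with 88.8 normalised tags (77.8 to 101). The region overlapped both control regions, 2 of 2 against 94.1% of all control H3K27me3 regions. A weak shEZH2 region beyond the 3′ end held 9.53 normalised tags, or 25 tags, the stated shEZH2 threshold. Thus 1 of the 2 shEZH2 regions overlapped control, against 36.8% of the whole list. In control, regions of 933 and 637 bp inside the gene held 45.7 (38.7 to 53.5) and 25.8 (20.7 to 31.9) normalised tags. The density was 24.3 normalised tags per kb in the large shEZH2 region, and 49.0 and 40.5 in the control regions inside it. As the shEZH2 region is wider than both control regions together, this lower density and the larger number of tags do not show whether the mark changed. The shEZH2 density was also under the stated control window threshold of 26.0 normalised tags per kb. For the Polycomb targets CDKN2A and CDKN2B, no H3K27me3 region came closer than 21981 and 57132 bp in shEZH2 and 177072 and 167856 bp in control.

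H3K27ac was listed near all 7 genes in shEZH2 and in control, with the largest summed signal at CDKN1B, CDKN1A and CDKN2C. All 22 control regions overlapped a shEZH2 region, against 97.0% of all control H3K27ac regions, and 15 of the 17 shEZH2 regions overlapped a control region, against 59.0% of the whole shEZH2 list. The 2 others were a region inside CDKN2A and one over the start of CDKN1C, with 12.6 normalised tags each in shEZH2 (8.39 to 18.2). At CDKN1C this came to 9.62 normalised tags per kb, just above the stated window threshold of 9.47 in shEZH2 and below that of 34.4 in control. This CDKN1C region overlapped the H3K27me3 region described above.

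The summed H3K27ac of listed regions within 10 kb was 872 normalised tags in shEZH2 and 996 in control at CDKN1B, 856 and 632 at CDKN1A, and 763 and 669 at CDKN2C, with shEZH2 first in each pair. CDKN2D held 298 in shEZH2 and 344 in control. Lower sums were found at CDKN2B, with 167 in shEZH2 and 180 in control, at CDKN2A, with 148 and 135, and at CDKN1C, with 87.9 and 57.3. CDKN2A and CDKN2B share the region at the start of CDKN2A in these sums. CDKN1A stood above CDKN2C in shEZH2 and below it in control, where their Poisson intervals overlapped, and the 5 other genes had the same order in both. Neighbours whose intervals overlapped in shEZH2 were CDKN1B and CDKN1A, and CDKN2B and CDKN2A. The shEZH2 regions covered more sequence, 13983 bp against 6815 bp at CDKN1A for example. The density was lower in shEZH2 at every gene, from 20.4 to 70.6 normalised tags per kb in shEZH2 and from 36.8 to 162 in control. A lower density was usual in the whole lists. Of all 56382 control H3K27ac regions listed in both, 12.3% were higher per kb in shEZH2, against 5 of 22 (22.7%) near the genes. At CDKN1B, CDKN2D and CDKN2B the sum was lower in shEZH2 as well as the density. Per kb the order differed, and in control CDKN2D, at 120 normalised tags per kb, stood above CDKN2C at 100.1 and CDKN1A at 92.7.

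**Figure D4:**
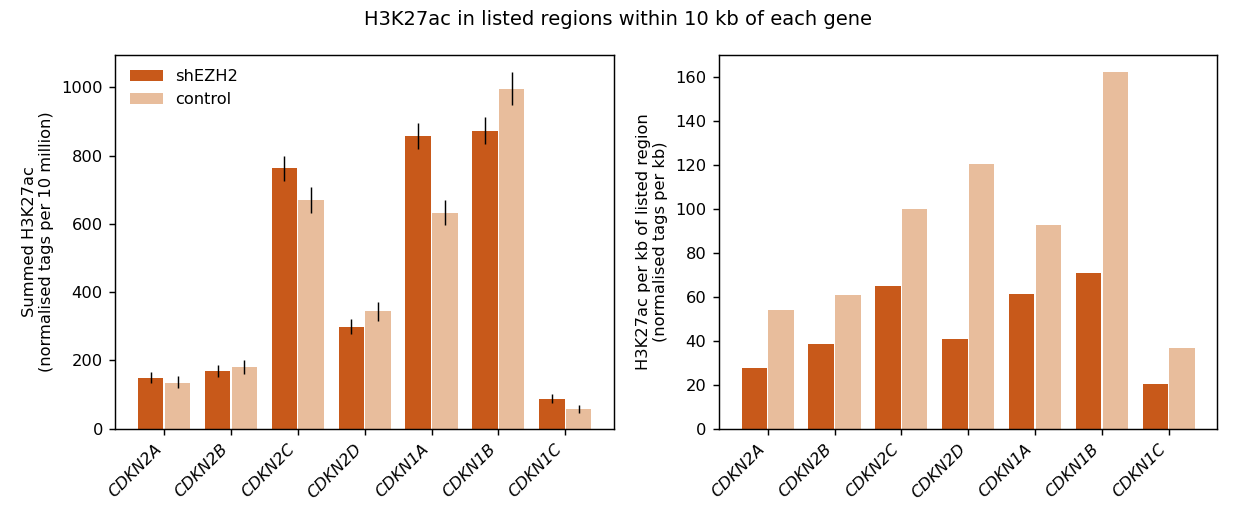
H3K27ac of listed regions within 10 kb of each gene, with shEZH2 left of control: summed normalised tags with 95% exact Poisson intervals (left) and normalised tags per kb of listed region (right). CDKN1B, CDKN1A and CDKN2C have the highest sums, CDKN1C the lowest, and the density is lower in shEZH2 at all 7 genes, where the listed regions are wider.

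The 2 H3K27ac regions with most tags lay over the starts of CDKN1A and CDKN1B in shEZH2 and in control. In shEZH2 the region over the start of CDKN1A held 826 normalised tags over 11919 bp, and the one over the start of CDKN1B 612 over 8501 bp. As many tags were held by 1.12% and 2.15% of all shEZH2 regions. In control the region over the start of CDKN1B held 531 normalised tags over 2581 bp, and the one over the start of CDKN1A 523 over 4957 bp. As many were held by 1.99% and 2.07% of all control regions. Away from starts, the region beyond the 3′ end of CDKN1B held 260 in shEZH2 and 428 in control. At CDKN2D the region at the 3′ end held more than the one over the start, with 207 against 59.1 in shEZH2 and 212 against 126 in control. At CDKN2A the control signal lay on both sides of the start, with 69.4 and 58.5 normalised tags, in stretches joined in shEZH2 into a region of 107.8. Deeper inside CDKN2A a weak region held 27.5 normalised tags in shEZH2, 18685 to 20228 bases after the start, and 6.88 in control, 19582 to 19804 bases after it. CDKN2A is known to have a second start for p16INK4a inside the gene, and RefSeq lists it 20467 bases after the first on GRCh38.p14. That distance is counted from a first start next to 21995325, not from the hg19 start at 21994490 used above. The second start adjoins 21974858 on GRCh38.p14. That number lies inside the weak region in shEZH2 (21974262 to 21975805) and in control (21974686 to 21974908). At CDKN2B numbering hardly differed. Its entry, 8 bases inside the gene, adjoins 22009306 on GRCh38.p14, and its hg19 start is 22009312. By position number the weak region thus covers the second start, although the builds were not aligned.

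A shEZH2 region that wholly contains a control region allows a direct comparison despite the unequal widths, since its tags are the most that the contained stretch can hold in shEZH2, apart from tags shifted across an edge. Near the genes 15 shEZH2 H3K27ac regions contained control regions. In 2 of them the shEZH2 region held at most 1/1.5 of the control tags, against 1.31% of 34537 such regions in the whole lists, and in 5 it held fewer tags than the control regions inside it, against 14.5%. Over the start of CDKN2D the limit put acetylation 2.13-fold lower in shEZH2 (1.70 to 2.66, 95% exact interval), with 59.1 normalised tags (49.4 to 70.1) over 2543 bp in shEZH2 and 126 (110 to 143) over the 1711 bp inside it in control. That region carries the CDKN2D start peak of EZH2 in both libraries. Beyond the 3′ end of CDKN1B, which the RefSeq table places next to GPR19 and APOLD1, the limit was 1.65-fold lower (1.48 to 1.84, so that counting error alone reaches under 1.5-fold), with 260 normalised tags in shEZH2 (239 to 282) and 428 in control (398 to 460). In control this region also held the second EZH2 peak of CDKN1B, which was not listed in shEZH2. A region at -11183 to -9040 bases from the start of CDKN2C, which crosses the 10 kb limit and holds no EZH2 peak, had 46.9 normalised tags in shEZH2 (38.3 to 56.8) and 65.4 in control (53.9 to 78.5). The other 2 were level within their intervals, with 207 normalised tags in shEZH2 and 212 in control across the 3′ end of CDKN2D, and 253 and 255 inside CDKN2C.

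The acetylation at the starts of the other genes was not shown to be lower by this limit. The limit as a log2 ratio was 0.12 over the start of CDKN1B (0.0043 to 0.24), 0.40 over CDKN1A (0.29 to 0.51), 0.30 over CDKN2C (0.14 to 0.47) and 0.19 over CDKN2B (-0.21 to 0.59), where a value above 0 leaves room for a higher, equal or lower level. Over CDKN2A it was 0.64 (0.31 to 0.96), counting only the control region of 69.4 normalised tags. The neighbouring control region of 58.5 ends at 21996074, past the shEZH2 end at 21996047, and was left out. Together the 2 control regions held more than the 107.8 normalised tags of the shEZH2 region. Including the second would thus put the CDKN2A value under 0, and no interval was computed for that. The median limit over the 34537 regions was 0.54. For H3K27me3 at CDKN1C it was 0.31 (0.05 to 0.58), against a median of 1.64 over 35863 regions, of which 0.825% held fewer tags than control and 0.0112% at most 1/1.5 of them. These limits rest on 1 library per group. Scaled to the tags in listed regions, which lowers every H3K27ac log2 ratio by 0.35, 3 of the 15 regions held at most 1/1.5 of control, against 5.61% of the whole lists.

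**Figure D5:**
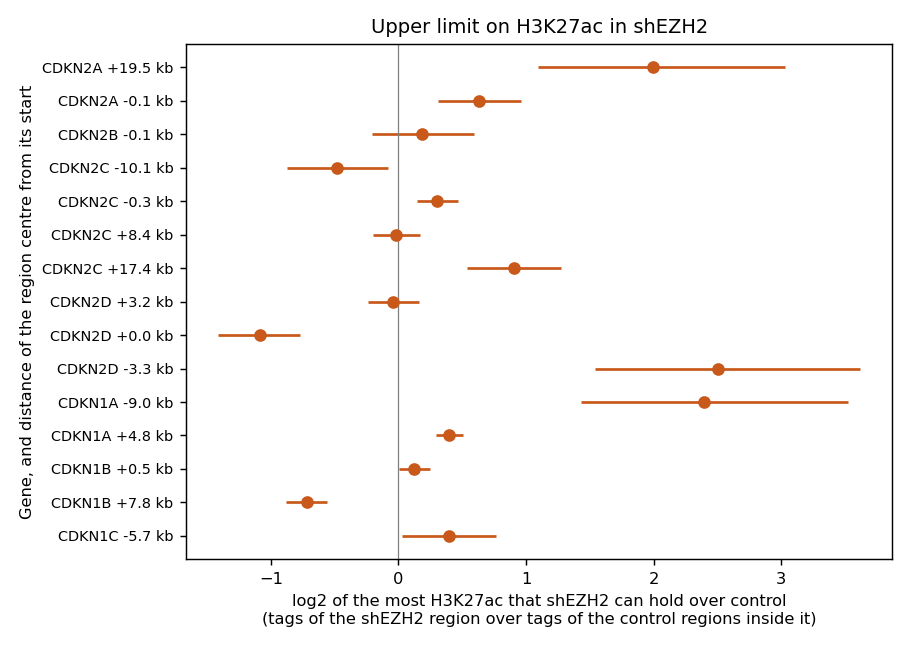
Upper limit on H3K27ac in shEZH2 relative to control at the 15 shEZH2 regions near the genes that contain control regions, as log2 of the tags of the shEZH2 region over those of the control regions inside it, with 95% exact intervals and labelled by gene and by distance of the region centre from the gene start. The region over the CDKN2D start lies at -1.09 and the one beyond CDKN1B at -0.72. Values above 0 set no direction, and control regions that cross an edge of the shEZH2 region, as at the CDKN2A start, are not counted.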

How the data were processed

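ChIP-seq peak lists of EZH2, H3K27ac and H3K27me3 from shEZH2 and control (plko.1) LNCaP cells were used, with 1 library per group. Samples were grouped by title. Per the submitters' processing notes, the tools were BWA 0.6.1 and HOMER 4.1 and the build hg19. Chromatin had been sheared to 200 to 500 bp, per the labels' protocols. Each library was called by itself with no input library named in the call, per the file headers, so copy number was not removed. EZH2 windows needed a false discovery rate of 0.001 and at least 4-fold over the local 10 kb, per the file headers. Histone windows were joined into regions. Per the file headers they were 1000 bp wide with a Poisson probability of 0.001 in shEZH2, and 150 bp wide with a false discovery rate of 0.001 in control. The deposited signal is the tag number of a region, normalised by the authors to a library size of 10000000. The deposited score, which HOMER gives each peak, only ranked peaks within a list. The deposited fold is a ratio of tag density to the surrounding 10 kb and is quoted for EZH2 peaks.

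The hg19 interval of each gene was given with the choice of genes, and regions within 10 kb were taken. Tag numbers were recovered as normalised tags times library total, and all values under 100 normalised tags came within 0.2 of a whole tag. Overlap meant at least 1 shared bp. Intervals are 95% exact Poisson for tags, exact binomial (Clopper-Pearson) for shares and exact for the split of tags between libraries. They cover counting error only, since PCR copies and regions are not replicates. The members, gene lists and comparisons were chosen with earlier results of these data known. The naming rule covered all 7 genes, every EZH2 peak near them, and the histone regions over a start or with most tags. Other histone regions were named after their values were seen, and the containment limit and its scaling alternative were chosen after seeing the data. Related pathway genes and luminal marker genes could not be located, as no hg19 annotation was used. The strand of CDKN1C is from general knowledge and that of the others from RefSeq. The overlap, containment and ratio code was tested on simulated intervals. Alternatives were distance, list length, score, overlap, density and scaling. Computation used scipy 1.17.1 and pandas 2.3.3 with numpy 2.4.6 in Python 3.11.15, and plots matplotlib 3.10.9.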

Additional observations from a re-analysis of the deposited data

How the results depend on the processing

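The numbers of regions depended on distance and list, while the overlaps of control EZH2 peaks with shEZH2 EZH2, H3K27ac and H3K27me3 stayed within 1.5 times under 50% coverage and a distance of 1 kb. Counting only regions that touch a gene gave 9 control EZH2 peaks, 11 H3K27ac regions in shEZH2 and 11 in control, and 1 H3K27me3 region in shEZH2. Within 50 kb there were 33 H3K27ac regions in shEZH2 and 35 in control, and 18 H3K27me3 regions in shEZH2 and 10 in control. In the upper 50% of each list by score there were 5 EZH2 peaks in shEZH2 and 9 in control, 14 H3K27ac regions in control, and 0 H3K27me3 regions in shEZH2. Lists of equal length gave 7 control EZH2 peaks. At the higher of the density thresholds there were 9 H3K27ac and 0 H3K27me3 regions in shEZH2.

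The log2 ratio of summed tags, shEZH2 over control, over all 7 genes was -0.98 for EZH2, 0.097 for H3K27ac and 0.46 for H3K27me3. Scaled to the tags in listed regions these became 0.081, -0.26 and -0.89. With regions that touch a gene they were -0.51 for EZH2 and 0.37 for H3K27ac. Per gene, scaling turned CDKN2D EZH2 to 0.12, CDKN1A EZH2 to 0.76 (-0.30 before), CDKN2C H3K27ac to -0.17, CDKN2A H3K27ac to -0.22 (0.13 before) and CDKN1C H3K27me3 to -0.89. It moved CDKN1C EZH2 from 0.012 to 1.07 and CDKN2C EZH2 from -2.19 to -1.13. Touching regions turned CDKN2D EZH2 to 0.13, CDKN2D H3K27ac to 1.08 (-0.20 before), CDKN2B H3K27ac to 0.43 (-0.11 before) and CDKN1B H3K27ac to 0.19. At CDKN2D the shEZH2 H3K27ac region of 206.5 normalised tags crosses the gene end and was kept, while the control region of 212.2 lies beyond that end and was dropped. Scaling changes all ratios of a target alike. The median ratio at shared regions was -0.63 for EZH2, -0.70 for H3K27ac and -0.88 for H3K27me3 per kb, and -0.91, 0.77 and 1.37 per region, so its sign for the histone marks follows the division by width. In the whole lists these medians were -0.39, -0.89 and -0.87 per kb, and -0.67, 1.58 and 3.27 per region. No paired analysis was possible because each group held 1 library.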

Other observations

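H3K27me3 in the wider surroundings was concentrated at CDKN1C. From 10 to 100 kb around CDKN1C there were 17 H3K27me3 regions in shEZH2 and 16 in control, and 2 EZH2 peaks in shEZH2 and 4 in control. Around the other 6 genes the same distance held at most 3 H3K27me3 regions in shEZH2, at CDKN2D and CDKN1B, and at most 4 in control, at CDKN2D. Around CDKN2A, CDKN2B, CDKN2C and CDKN1A there was 1 in shEZH2 and none in control within 100 kb. The nearest H3K27me3 region of CDKN1A lay 88649 bp away in shEZH2 and 101031 bp away in control.

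EZH2 had no listed peak within 100 kb of CDKN2A or CDKN2B in shEZH2. The nearest shEZH2 EZH2 peak to CDKN2A was 407940 bp away and the nearest to CDKN2B 437906 bp. In control 4 EZH2 peaks lay within 100 kb of CDKN2A. At CDKN2C the next EZH2 peak beyond 10 kb was 539560 bp away in shEZH2 and 261593 bp in control.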
